A study of Homo sapiens with 4 samples.

Results

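ETS transcription factors are proteins that bind DNA at a short GGAA core through a shared domain, and 10 of their genes were followed across the 4 conditions of a drug experiment in pancreatic cancer cells. The genes were taken by symbol from the table of 16834 genes. They are 3 members of the PEA3 subfamily (ETV1, ETV4 and ETV5) and 7 other ETS factors (ETS1, ETS2, ELK1, ELK3, ERF, ETV6 and ELF3), and all 10 were in the table. RNA of wild-type cells labelled MIA PaCa-2, a human line from a pancreatic ductal adenocarcinoma, was sequenced without drug (control), with 1 µM NBT, with 5 µM trametinib, or with both (the combination). The treatments lasted 12 h, and each condition was 1 library. NBT is neobractatin, a natural compound from Garcinia bracteata, and trametinib inhibits the kinases MEK1 and MEK2. The experiment asked how the combination changes gene expression relative to the control and to either drug alone.

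The RAS, RAF, MEK and ERK kinases pass growth signals to the nucleus, and ETS factors are among the proteins at the end of this route. ERK activity raises transcription of the PEA3 genes, in part because it relieves their repression by the protein CIC, and PEA3 proteins then activate genes of growth, invasion and negative feedback. ELK1 and ELK3 act with the serum response factor SRF at immediate early genes, ERF and ETV6 are repressors, ETS1 and ETS2 are activators that ERK phosphorylates, and ELF3 is a factor of epithelial cells.

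The labels and the marker genes of these libraries did not match in full. CDKN2A, a gene of the cell cycle that is homozygously deleted in MIA PaCa-2, was represented by 2643 reads without drug, 2674 under NBT, 3524 under trametinib and 3187 under both drugs. The epithelial adhesion gene CDH1 had between 2539 and 4086 reads and EPCAM between 3113 and 3502, while VIM, abundant in mesenchymal cells, had between 202 and 500. The cell line entry of the labels also runs from MIA PaCa-2 to MIA PaCa-5 over the 4 libraries, whose titles all read MIA PaCa-2. All results below are therefore those of the libraries labelled MIA PaCa-2. Of 15 marker genes analysed, 5 were epithelial. They summed to 7274 TPM in the control, 6110 TPM with NBT, 3564 TPM with trametinib and 2765 TPM in the combination. Most of each sum came from KRT8 (3799, 3151, 2216 and 1493 TPM in that order) and KRT18 (3142, 2694, 1048 and 995 TPM). KRT7 had 5.74 TPM in the control and 2.78 TPM with trametinib. CDH1 had 85.4 TPM in the control, 86.9 TPM with trametinib and 57.0 TPM in the combination. EPCAM had 242, 210 and 218 TPM in these libraries. VIM and the T cell gene CD3E moved with trametinib too (CD3E had 0 reads in the control and NBT libraries, 55 with trametinib and 29 in the combination). The leukocyte markers summed to between 96.9 and 140 TPM, nearly all from CD68, the endothelial ones to between 0.290 and 0.670 TPM and the fibroblast ones to between 0.510 and 1.71 TPM. With trametinib, VWF (3 reads in the control and 25 with the drug) and COL1A1 (45 and 98 reads) were higher as well, with VWF at 6 reads and COL1A1 at 53 in the combination. The endothelial marker CDH5 was at 0 reads in the control and had at most 2 elsewhere. The part of these shifts in the results for the ETS genes was not tested.

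Reads per gene were estimated by the authors. The estimates of a library summed to between 18776212 and 19614763 reads after rounding, so that 3 reads, the floor used here for a gene, correspond to 0.153 to 0.160 CPM. Levels of different genes are compared in TPM, which is scaled to transcript length. Changes of a gene between libraries are log2 ratios of its counts scaled to the library sums, with 0.5 reads added, and they are followed in brackets by a 95% interval that covers counting error only. A gene was called higher or lower between a pair of libraries when an exact two-sided binomial test of its counts, adjusted over all genes with a read, was at most 0.05 and the log2 ratio was at least 1 in size. With 1 library per condition this test compares libraries and not conditions, and no spread between cultures is known.

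The level of the 10 genes together was 437 TPM in the control library, 398 TPM with NBT, 496 TPM with trametinib and 293 TPM in the combination. Their make-up changed as well. ETV4 and ETV5 held 15.2% of it in the control and 21.2% with NBT, but 2.31% with trametinib and 3.76% in the combination. ELF3 held 2.15% without drug, 0.738% under NBT, 29.0% under trametinib and 5.25% under both drugs. The PEA3 share was thus small in both libraries that received trametinib, and the ELF3 share was large in the library that received trametinib alone. In these bulk libraries, fewer cells that express a gene and less of its RNA per cell cannot be told apart.

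**Figure D1:**
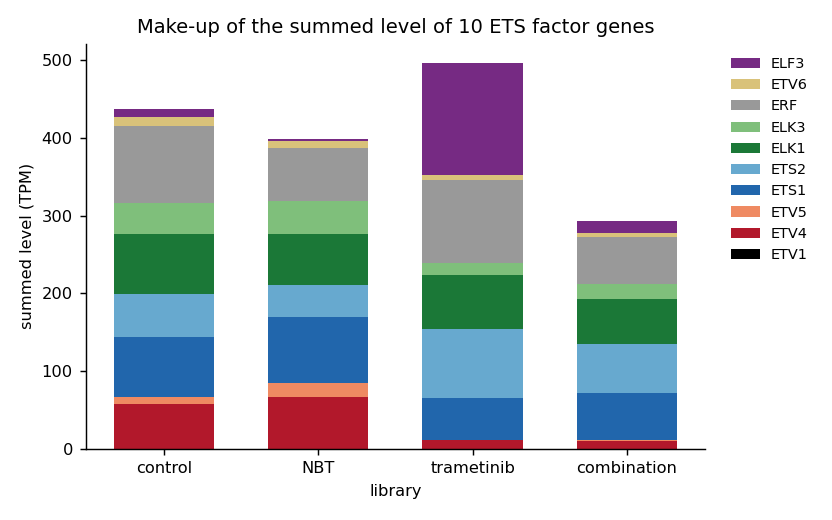
Summed level of the 10 ETS factor genes (y axis, TPM) in each of the 4 libraries (x axis), with 1 colour for each gene. The ELF3 part rises to 29.0% of the bar with trametinib alone, and the ETV4 part shrinks with trametinib and in the combination.

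In the control library ERF led at 98.6 TPM. ELK1 (77.7 TPM) and ETS1 (77.5 TPM) followed, and their log2 difference of 0.00 [-0.07, 0.08] did not exceed counting error. ETV4 (57.2 TPM) and ETS2 (54.7 TPM) were likewise level, then came ELK3 at 39.9 TPM and ETV6 at 12.6 TPM. ETV5 (9.43 TPM) and ELF3 (9.39 TPM) stood side by side near the bottom, and ETV1 came last. With NBT the order was headed by ETS1 at 85.4 TPM, and ERF, ETV4 and ELK1 followed as neighbours whose intervals held 0. With trametinib the order opened with ELF3 at 144 TPM, ahead of ERF at 107 TPM. In the combination ETS2, ETS1, ERF and ELK1 lay between 58.4 and 62.3 TPM, and no neighbours among these 4 differed beyond counting error.

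**Figure D2:**
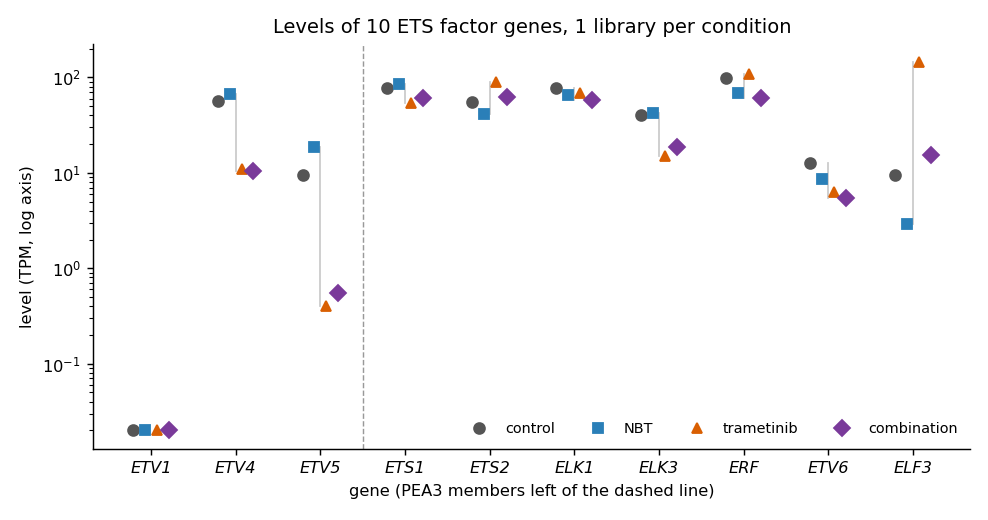
Level of each ETS gene (TPM, log axis) in the 4 libraries, with the PEA3 genes left of the dashed line and 1 point for each library. ETV5 spans a factor of 46.1 between the NBT and trametinib libraries and ELF3 a factor of 48.8 between the same libraries, while the points of ELK1 lie between 58.4 and 77.7 TPM.

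ETV4, on chromosome 17 from 43527846 to 43546340 on the minus strand (GRCh38.p14), was the most abundant PEA3 gene in every library. Its estimated count was 1166 reads without drug, 1449 under NBT, 232 under trametinib and 225 under both drugs. The trametinib and combination libraries were both far below the other pair. ETV4 was called lower with trametinib, by a log2 ratio of -2.34 [-2.55, -2.14], or 0.198 times the control level. It was called lower in the combination, with -2.43 [-2.65, -2.23] against the control and -2.70 [-2.91, -2.50] against NBT. The combination and trametinib libraries did not differ beyond counting error in ETV4, at -0.09 [-0.37, 0.18]. NBT alone gave 0.26 [0.15, 0.38], above 0 in counting error but not called. The gene overlaps DHX8 on the opposite strand, and whether counting used strand is not given in the sources used here.

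The reads of ETV4 were spread by the authors' estimation over 8 transcripts. The transcripts NM_001261438.3 and NM_001986.4 held 71.3% of them without drug, 81.5% under NBT, 82.0% under trametinib and 78.9% under both drugs. The estimate for NM_001261438.3 was 420 reads without drug, 787 under NBT, 95.3 under trametinib and 76.8 under both drugs. NM_001986.4 had 412, 394, 94.8 and 101 in that order. Both main transcripts were thus lower in the libraries with trametinib, whereas only NM_001261438.3 had a higher estimate with NBT. Such estimates divide reads shared between transcripts and carry an error that the deposited values do not give.

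ETV5, on chromosome 3 from 186046314 to 186109089 on the minus strand, had the lowest trametinib ratio of the members. Its count was 367 reads without drug, 777 under NBT, 16 under trametinib and 23 under both drugs, all from the single transcript NM_004454.3. The NBT library was the highest, and both libraries with trametinib kept few reads. ETV5 was called lower with trametinib at -4.49 [-5.36, -3.81], which is 0.0445 times the control level. Among 10520 genes with at least 100 reads in either library, 4 had a lower ratio than ETV5 and 42 a lower ratio than ETV4. The combination was called lower against the control at -4.03 [-4.74, -3.45] and against NBT at -5.06 [-5.76, -4.50]. Against trametinib alone, the ratio of ETV5 in the combination was 0.46 [-0.51, 1.49], an interval that these few reads leave wide. With NBT alone ETV5 was called higher at 1.03 [0.85, 1.22], just past the limit of 1, and the ratio of its TPM values, 0.96, was short of it. ETV5 overlaps the antisense gene ETV5-AS1, and DGKG on the same strand.

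ETV1, the third PEA3 gene, on chromosome 7 from 13891229 to 13991425 on the minus strand, had 1 read in each of the 4 libraries (0.0200 TPM). At this depth it was not detectable above the limit of 3 reads in any condition, and no fold is given. Statements on PEA3 levels therefore rest on ETV4 and ETV5.

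ETS1, on chromosome 11 from 128458765 to 128587558 on the minus strand, and ETS2, on chromosome 21 from 38805183 to 38824955 on the plus strand, encode closely related activators and had different signs with trametinib. The ETS1 count was 3873 reads without drug, 4628 under NBT, 2742 under trametinib and 3287 under both drugs, lowest with trametinib alone. ETS2 had 1945, 1583, 3264 and 2370 in the same order, highest with trametinib alone. The trametinib ratio was -0.51 [-0.58, -0.44] for ETS1 and 0.73 [0.65, 0.82] for ETS2. In the combination the ratios against the control were -0.30 for ETS1 and 0.22 for ETS2, and with NBT they were 0.21 and -0.35. Neither gene reached the limit of 1 in any of the 5 comparisons. ETS1 overlaps ETS1-AS1 on the opposite strand.

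ELK1 and ELK3, the partners of SRF, had different ratios. ELK1, on chromosome X from 47635520 to 47650604 on the minus strand, was counted at 2114 reads without drug, 1918 under NBT, 1919 under trametinib and 1701 under both drugs. Its ratios against the control lay between -0.38 and -0.15, and its highest TPM was 1.33 times its lowest. ELK3, on chromosome 12 from 96194375 to 96269824 on the plus strand, had 1603, 1862, 624 and 804 reads in the same order, with both trametinib libraries below the other pair. ELK3 was called lower with trametinib at -1.37 [-1.51, -1.24] and in the combination at -1.06 [-1.18, -0.94]. Against NBT the combination gave -1.22 [-1.35, -1.10], again a call. The transcript NM_005230.4 held between 87.9% and 95.7% of the reads of ELK3. This gene overlaps AC008149.1 on the opposite strand.

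ERF, an ETS repressor whose protein ERK sends out of the nucleus, lies on chromosome 19 from 42247569 to 42255128 on the minus strand. The count was 2474 reads without drug, 1831 under NBT, 2766 under trametinib and 1629 under both drugs, so the libraries with NBT were the lower pair. The ratio was -0.48 [-0.57, -0.40] with NBT, 0.15 [0.07, 0.23] with trametinib and -0.67 [-0.76, -0.58] in the combination. ETV6, a repressor on chromosome 12 from 11649674 to 11895377 on the plus strand, had 734, 527, 377 and 338 reads in that order, highest in the control. It gave -0.53 [-0.69, -0.36] with NBT and -0.97 [-1.16, -0.79] with trametinib, and was called lower in the combination at -1.18 [-1.37, -0.99]. The trametinib ratio of ETV6 lay just short of the limit, and it passed with TMM scaling (-1.05) and with median-of-ratios scaling (-1.04). ERF was called in no comparison, and it overlaps AC006486.1 on the same strand.

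ELF3, on chromosome 1 from 202010587 to 202017183 on the plus strand, was the only member called higher with trametinib. The ELF3 count was 225 reads without drug, 94 under NBT, 3502 under trametinib and 417 under both drugs. The trametinib library stood apart from all others, and the NBT library was the lowest. ELF3 was called higher with trametinib, 15.4-fold at a log2 ratio of 3.94 [3.75, 4.15], and 4 of 10520 genes with at least 100 reads in either library had a higher ratio. With NBT it was called lower at -1.30 [-1.67, -0.96]. In the combination ELF3 was 1.77-fold above the control at 0.83 [0.59, 1.07], short of the limit. Against trametinib alone the combination was called lower at -3.12 [-3.27, -2.97], and 13 of 10572 genes had a lower ratio. Against NBT alone the combination was called higher at 2.13 [1.81, 2.47]. NM_004433.5 held all reads of ELF3 in the NBT library, and 90.9% in the control, 86.0% with trametinib and 81.9% in the combination. ELF3 overlaps ELF3-AS1 on the opposite strand and AL691482.3 on the same strand. Without strand, reads from bases shared by ELF3 and ELF3-AS1 could not be told apart, and strand would not separate those shared with AL691482.3. These overlaps are of whole gene spans, and how many reads fall in shared exons was not tested.

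The 300 bases around the start sites of ELF3 and ELK3, the other ETS genes called with trametinib alone, are shown because both genes belong to the family whose GGAA core can be looked for in them. The sequences are from RefSeq (GRCh38.p14), run 5′ to 3′ on the plus strand from 250 bases before to 50 bases after the start, and cover chr1:202010337-202010636 for ELF3 and chr12:96194125-96194424 for ELK3. Capitals mark the core, read as GGAA or, on the other strand, TTCC.
ELF3: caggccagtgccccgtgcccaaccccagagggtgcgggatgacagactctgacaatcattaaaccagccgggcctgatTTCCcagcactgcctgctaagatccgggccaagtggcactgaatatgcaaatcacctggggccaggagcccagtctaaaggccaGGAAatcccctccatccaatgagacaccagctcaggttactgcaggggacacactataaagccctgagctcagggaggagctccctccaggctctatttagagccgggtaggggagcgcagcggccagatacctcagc
ELK3: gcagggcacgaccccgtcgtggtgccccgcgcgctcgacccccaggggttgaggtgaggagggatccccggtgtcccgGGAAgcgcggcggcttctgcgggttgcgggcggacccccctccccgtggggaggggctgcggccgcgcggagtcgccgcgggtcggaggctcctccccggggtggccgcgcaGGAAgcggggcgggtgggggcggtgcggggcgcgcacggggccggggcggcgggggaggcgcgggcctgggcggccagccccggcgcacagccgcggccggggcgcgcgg
Each of these stretches holds 2 matches to the core, at 172 and 88 bases before the start in ELF3 and at 172 and 60 bases before it in ELK3. The core occurs in 95.5% of 35116 RefSeq promoters of the same length, with a median of 3 matches, so that its presence sets neither gene apart. The longer ETS letters CCGGAA, found in 17.2% of promoters on either strand, were in neither. The same held for the AP-1 letters TGANTCA (7.71% of promoters) and the CIC letters TGAATGAA (1.65%) and TGAATGGA (1.03%). The ELK3 promoter is 83.7% G and C and the ELF3 promoter 59.0%, against a median of 58.7% over all promoters. A further RefSeq promoter of ELK3, which starts at 96255248 on the same chromosome, holds 8 matches to the core and none to the longer letters. RefSeq promoters matched 7 of the 10 genes and were lacking for ETV4, ETV5 and ETS1. The CIC and other letters could therefore not be looked for in ETV4 and ETV5.

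Members were then counted against all genes, whose calls give the background of each comparison. With NBT, ETV5 was called higher and ELF3 lower, where 1.60% of 15888 genes tested were called higher and 1.01% lower. With trametinib 1 member was called higher (ELF3) and 3 lower (ETV4, ETV5 and ELK3), where 3.82% of 16197 genes were called higher and 2.15% lower. In the combination 0 members were called higher and 4 lower (ETV4, ETV5, ELK3 and ETV6), against 4.73% and 3.69% of 16229 genes. When the combination was set against NBT, ELF3 was called higher and 3 members lower (ETV4, ETV5 and ELK3), against 2.38% and 1.99% of 16250 genes. Against trametinib, only ELF3 was called, as lower, while 2.56% of 16343 genes were higher and 3.55% lower. ETV1 could not take part in any of these counts. If cultures are assumed to vary by a coefficient of variation of 0.2, edgeR's exact test kept 0 of the NBT calls, ETV4, ETV5 and ELF3 with trametinib, and ETV4 and ETV5 in the combination, so the calls of ELK3 and ETV6 were lost. At 0.2, 51 of all genes tested were higher and 18 lower with NBT, 203 and 162 with trametinib, and 296 and 251 in the combination. At 0.4, ETV5 and ELF3 remained with trametinib and ETV5 in the combination. Over all genes tested, 13 were then higher and 9 lower with trametinib, and 30 and 21 in the combination. The 3 comparisons with the control share that library, so their calls are not independent of each other.

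**Figure D3:**
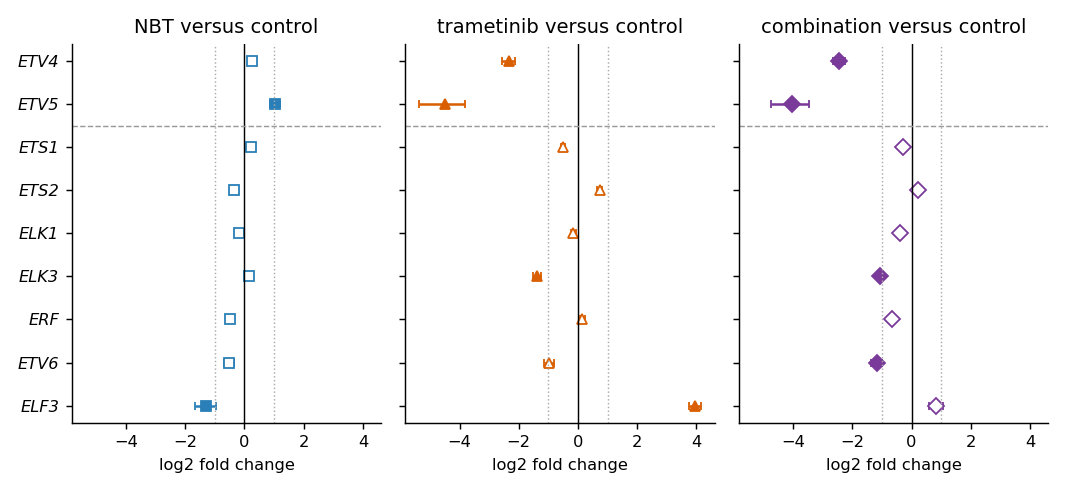
Log2 fold change (x axis) of 9 ETS genes against the control for NBT, trametinib and the combination, with 95% counting intervals as bars and filled points for called genes. ETV4 and ETV5 lie above the dashed line and fall past -2 in both panels with trametinib, and ELF3 goes from -1.30 with NBT to 3.94 with trametinib and 0.83 in the combination.

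The PEA3 pair was set against the other 7 factors by medians of the log2 ratios. With trametinib the median was -3.42 for ETV4 and ETV5 and -0.15 for the other factors, a difference of -3.26, beside a median of 0.08 over all genes tested. In the combination it was -3.23 against -0.38, with 0.04 over all genes. With NBT the order turned, with 0.65 for the PEA3 pair and -0.35 for the others, a difference of 0.99, beside 0.00 over all genes. That PEA3 median lies between 0.26 for ETV4, which was not called, and 1.03 for ETV5. The NBT ratios of the other factors ran from -1.30 for ELF3 to 0.21 for ETS1, which was close to ETV4. Between the combination and NBT the medians were -3.88 and -0.19, with 0.03 over all genes, and between the combination and trametinib they were 0.18 and -0.22, with -0.04 over all genes. The other factors did not form a uniform group. Their trametinib ratios ran from -1.37 for ELK3 to 3.94 for ELF3. ELK3, ETV6 (-0.97), ETS1 (-0.51) and ELK1 (-0.15) shared the direction of the PEA3 pair at a smaller size. ERF (0.15), ETS2 (0.73) and ELF3 had the opposite sign.

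Trametinib was given with and without NBT, and its effect in the 2 settings was compared for each of the 9 members with enough reads. With counts scaled to the library sums, the counting interval of the difference left out 0 for 5 of them, 4 below and 1 above. For ETV4, ETS2 and ELK3 this depended on the scaling. Only 1 member differed by over 1 on the log2 scale. That member was ELF3, whose trametinib ratio was 3.94 without NBT and 2.13 with it, a difference of -1.81 [-2.19, -1.44]. For ETV4 the difference was -0.36 [-0.64, -0.07], and for ETV5 it was -0.57 with an upper bound of 0.36. Both PEA3 genes had the lower trametinib ratio in the presence of NBT, with this scaling beyond counting error for ETV4 only. Seen from the other drug, the NBT ratio was 0.26 for ETV4 and 1.03 for ETV5 without trametinib, and -0.09 and 0.46 with it. The combination did not lie below trametinib alone beyond counting error. ETV4 had 232 reads with trametinib and 225 in the combination, and ETV5 had 16 and 23, which are few. Among the rest, ERF gave -0.33 [-0.45, -0.21], ETV6 0.32 [0.05, 0.59] and ETS2 -0.16 [-0.29, -0.04]. For ETS1 (0.00 [-0.09, 0.10]), ELK1 (-0.03 [-0.16, 0.10]) and ELK3 (0.15 [-0.03, 0.33]) the interval held 0. These intervals leave out variation between cultures, which 1 library per condition cannot give.

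**Figure D4:**
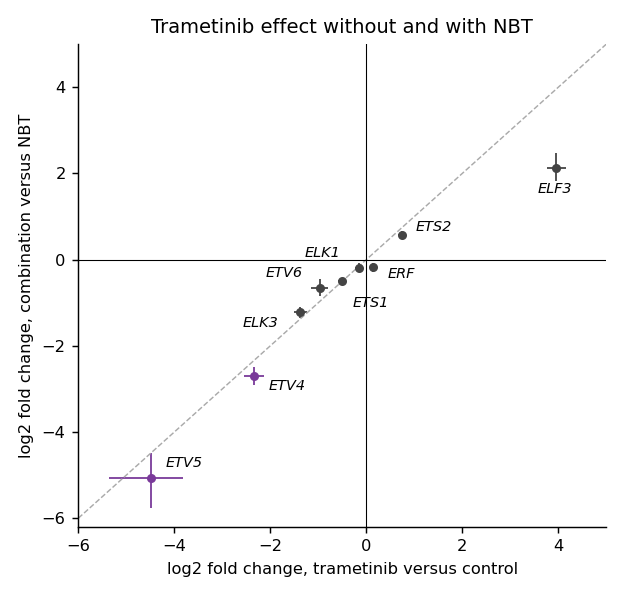
Log2 fold change of 9 ETS genes for trametinib versus control (x axis) and for the combination versus NBT (y axis), with 95% counting intervals and a dashed line of equality. ELF3 lies below the line at 3.94 and 2.13, and ETV4 and ETV5 lie at the lower left close to it.

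A list of 18 other human ETS genes served to place the members in their family. Of these 16 were analysed, and 7 had over 50 reads in at least 1 library (ETV3, ELK4, ELF1, ELF2, ELF4, GABPA and SPIB). The one call among them fell on EHF, an epithelial factor of the subfamily of ELF3, with 8 reads without drug, 21 under NBT, 24 under trametinib and 31 under both drugs. EHF was called higher with trametinib at 1.51 and in the combination at 1.83, on few reads. Of all genes tested, 3.82% and 4.73% were called higher in these 2 comparisons. ELF4 (0.55), ELF1 (0.48) and GABPA (0.44) had positive trametinib ratios below the limit. Over the listed genes with enough reads the ratios ran from -0.21 to 1.51 with trametinib and from -1.13 to 1.83 in the combination, a narrower range than that of the members.

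Regulators and partners of these factors were followed too, and all 18 listed genes had reads enough to compare. With trametinib 0 of 18 were called, with a median of 0.20, where 3.82% of all genes tested were called higher and 2.15% lower. With NBT 0 of 18 were called, with a median of -0.14, where 1.60% were higher and 1.01% lower. At such shares a list of 18 genes can hold 0 calls, so these counts do not set it apart. CIC, the repressor of PEA3 genes, was counted at 3486 reads without drug, 2941 under NBT, 4501 under trametinib and 2598 under both drugs, and was not called. The sole call was ATXN1, a partner of CIC, with 151, 138, 286 and 338 reads in that order, which was higher in the combination at 1.10 against the control and at 1.28 against NBT. Of all genes tested, 4.73% were called higher in the combination against the control and 2.38% against NBT. COP1, part of the ubiquitin ligase that degrades PEA3 proteins, had ratios between 0.32 and 0.42 against the control. MAP2K1 and MAP2K2, which encode the MEK kinases, had trametinib ratios of -0.06 and 0.30.

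Of 20 genes listed as targets of ETS factors or ERK, 19 had over 3 reads. The list was chosen with earlier results of these data known, so its counts are a description and no test. With trametinib 2.15% of all genes tested were called lower and 3.82% higher, with a median of 0.08. Of the 19 targets 13 were called lower and 0 higher, with a median of -2.07. The feedback genes DUSP6 (-4.52), DUSP4 (-4.39), SPRY4 (-3.56) and SPRY2 (-2.48) were among them, as were CCND1 (-2.70), which drives the G1 phase, and PLAU (-1.60), a protease of invasion. In the combination 11 were called lower and 1 higher, with a median of -1.34, and the higher one was the matrix protease MMP3 at 3.29. Over all genes tested the shares were 3.69% lower and 4.73% higher. Against NBT the combination had 13 of 19 lower, where 1.99% of all genes tested were lower. With NBT alone 2 were called higher, MMP1 (1.52) and MMP3 (3.82), and 0 lower, with a median of 0.12. The shares over all genes tested were 1.60% higher and 1.01% lower. Between the combination and trametinib 4 were higher (SPRY2, MMP3, PLAUR and FOS) and CCND1 was lower at -2.07, where ETV4 and ETV5 showed no difference beyond counting error. Of all genes tested in that comparison, 2.56% were higher and 3.55% lower. FOS, an immediate early gene of SRF and the ELK factors, was counted at 85 reads without drug, 84 under NBT, 14 under trametinib and 102 under both drugs.

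The genes whose pattern was most like that of the PEA3 pair were found by the distance between their 3 log2 ratios against the control and the means of those of ETV4 and ETV5 (0.65, -3.42 and -3.23). Among 10653 genes compared over the 4 libraries the nearest was SPRY4, a feedback inhibitor of receptor signalling, at a distance of 0.262, with 169 reads without drug, 295 under NBT, 14 under trametinib and 16 under both drugs. PHLDA1 followed at 0.619, with 4113, 5448, 420 and 662 reads in that order. SH3TC2 (0.877), TMEM63A (0.905) and EVI2B (1.06) came next. As in ETV4 and ETV5, the reads of all 5 were lower in both libraries with trametinib than in the other pair. The genes were found by that pattern, so this likeness is a description with no test. SPRY4 is also in the list of targets above, and 3 ratios that share 1 control library are a small basis for likeness.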

How the data were processed

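RNA from 4 libraries, labelled MIA PaCa-2 and treated for 12 h, was sequenced on the BGISEQ-500 platform. Libraries were put in their groups by titles and treatment labels, and none was left out. The submitters' processing notes name Bowtie2 2.2.5, RSEM 1.2.8 and hg38. The deposited estimated counts (RSEM expected counts) are not normalized, and 53.9% of genes have a value that is not whole within 0.005 in at least 1 library. The TPM values that the authors deposited are scaled to length and a fixed sum, and their FPKM values to length and mapped fragments. Filters on reads or genes, and whether strand was used, are not given in the sources used here. The authors called genes by a Poisson test, with limits that were also used here.

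Estimated counts were rounded and scaled to each library's sum. The binomial test doubled the smaller tail and was adjusted by Benjamini-Hochberg over all genes that had 1 or more counts in the pair. Intervals of a ratio come from the 95% Clopper-Pearson limits of 1 library's share of the summed counts, and intervals of the difference between 2 ratios use the counting standard error. Both kinds leave out all variation but that of counting, and PCR copies are not separate molecules. No fold is given where both counts are at or under 3. The steps were tested on simulated data. Library sums lay between 18776212 and 19614763 counts.

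The members and the lists of family genes, regulators, targets and markers were chosen with earlier results of these data known. Named genes were all members, list genes that were called or carry a comparison, and the 5 genes nearest in pattern, with at least 100 reads in a library. Markers KRT19 and COL3A1 and the ETS genes FEV and ETV3L were not analysed here. Gene positions and promoters are from RefSeq (GRCh38.p14), and overlaps from GENCODE release 29. Alternatives were edgeR's TMM factors, DESeq2's median-of-ratios factors, TPM or FPKM with a pseudocount of 0.1, 5 or 0.1 added reads, transcript counts summed per gene, a minimum of 10 counts, edgeR's exact test with a coefficient of variation between cultures set to 0.2 or 0.4, and log2 limits of 2 or none. Python 3.11.15, numpy 2.4.6, pandas 2.3.3, scipy 1.17.1, matplotlib 3.10.9, R 4.3.3, edgeR 4.0.16 and DESeq2 1.42.0 were used.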

Additional observations from a re-analysis of the deposited data

Results flagged for a closer look

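The trametinib ratio of ERF had opposite signs without and with NBT, 0.15 for trametinib versus control and -0.18 for the combination versus NBT, and was called in neither. Each setting has 1 library, so the difference was not tested across cultures. The ratio without NBT was small and depended on scaling. It was 0.07 with TMM and 0.08 with median-of-ratios scaling, and the median over all genes tested was 0.08 with the main scaling.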

How the results depend on the processing

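With NBT the 2 members called became 1 with TPM values, 0 at an assumed coefficient of variation of 0.2 or 0.4, 0 with a log2 limit of 2 and 9 with no limit. Over all 15888 genes tested, calls higher and lower were 217 and 166 with TPM values, 51 and 18 at 0.2, and 3 and 1 at 0.4. They were 81 and 35 with a limit of 2, and 2672 and 2963 with no limit. With trametinib the 4 called became 2 at a coefficient of 0.4 and 9 with no limit. Of all 16197 genes tested, 13 were higher and 9 lower at 0.4, and 4085 and 2830 with no limit. In the combination the 4 called became 2 at a coefficient of 0.2, 1 at 0.4, 2 with a limit of 2 and 9 with no limit. Of all 16229 genes tested, 296 were higher and 251 lower at 0.2, and 30 and 21 at 0.4. With a limit of 2 they were 248 and 153, and with no limit 4184 and 3872. For the combination against NBT the 4 called became 1 at a coefficient of 0.4 and 9 with no limit. Of all 16250 genes tested, 5 were higher and 8 lower at 0.4, and 3311 and 2768 with no limit. For the combination against trametinib the 1 called became 0 at a coefficient of 0.4 and 6 with no limit. Of all 16343 genes tested, 6 were higher and 8 lower at 0.4, and 3378 and 4050 with no limit. Apart from the TPM value, which is that of ETV5 given next, these changes in the members called follow from the limits and assumed spreads themselves.

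The other 45 of 60 such counts of members stayed within 1.5 times the value reported. Of 360 single log2 ratios 355 kept their side of the call and moved within counting error, and 0 called ones changed sign. ETV5 with NBT lost its call with TPM values (0.96), and ETV6 with trametinib gained one with TMM (-1.05) and median-of-ratios scaling (-1.04). All 40 differences between PEA3 and other medians kept their direction in the settings tried. So did the differences between the trametinib effects, except that of ELK1, which was -0.03 and became 0.01 with TMM or median-of-ratios scaling and 0.02 with TPM values, all within counting error. With TPM values the differences of ETV4 (-0.29) and ETS2 (-0.12) came within counting error of 0, and that of ELK3 (0.20) went beyond it. With 1 library per condition no replicate could be left out. No paired analysis was possible because each condition has 1 library. Depth limits ETV1, EHF and the trametinib counts of ETV5.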

Other observations

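The genes whose 3 log2 ratios against the control lay nearest to those of ELF3 were looked up after its values were seen. WNT10A, which encodes a Wnt ligand, was nearest at a distance of 0.633, with 128 reads without drug, 44 under NBT, 1345 under trametinib and 244 under both drugs. LOXL4, BMF, IGFBP3 and LOC102724788 followed, at distances of 1.03 to 1.30. BMF, which encodes a pro-apoptotic BH3-only protein, had 16, 5, 125 and 29 reads in the same order, and IGFBP3, which encodes a binder of insulin-like growth factors, had 17, 11, 196 and 55. In all 5 genes the trametinib library was the highest, as in ELF3. They were found by that pattern, so their values are a description with no test.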
